A study of Homo sapiens with 17 samples.

Results

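The subject is 9 genes of the human HOXA cluster, HOXA3, HOXA4, HOXA5, HOXA6, HOXA7, HOXA9, HOXA10, HOXA11 and HOXA13, followed through 17 RNA-seq libraries of MOLM13 cells. The 9 genes were taken by name from the 58278 gene identifiers counted in every library. MOLM13 is a cell line established from acute myeloid leukaemia; it makes the fusion oncoprotein MLL-AF9, and every group below shares that background. The libraries belong to a pair of experiments, both by CRISPR knockout. The first has 3 libraries in which HOXA9 was knocked out (HOXA9_KO), 3 in which SAFB was (SAFB_KO), and 3 non-targeting controls (NT). The second has 4 libraries in which MEIS1 was knocked out (MEIS1_KO) and 4 non-targeting controls of their own (NT_MEIS1ex). The guides, the cut positions, whether the cells were clones or pools, and the time after the cut were not known here. Nor do the labels tell separate cultures from repeat libraries of a group, so p-values measure the spread between these libraries, which may be technical.

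HOX genes encode transcription factors that carry a homeodomain, a DNA-binding fold encoded by a stretch called the homeobox. They lie in clusters whose gene order follows the order of their use along the body axis, so that HOXA3 is an anterior gene and HOXA13 the most posterior one of its cluster. In blood formation the central and early posterior HOXA genes are active in stem and progenitor cells and are shut down as myeloid cells mature. MLL fusion proteins bind the cluster and keep it on, and HOXA9 acts with the TALE homeodomain proteins PBX and MEIS1, which bind DNA beside it. SAFB binds the nuclear matrix, DNA and RNA, and the study's title describes it as a partner of HOXA9 in repression. The comparisons ask what each knockout did to the RNA of the cluster itself.

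Near-identical paralogues could exchange reads in counting, so the homeoboxes, the 180 bases that encode the homeodomain, were compared in GENCODE 29 transcripts. Identity ranged from 47.78% to 91.11% over the 36 pairs of members. HOXA6 and HOXA7 were the most alike, and HOXA9 and HOXA10 had 76.11%. Whole transcripts were compared with a single transcript per gene, the longest that held the homeobox. The longest identical run of any pair was 41 bases, shared by HOXA6 and HOXA7. The reads were pairs of 150 bases, longer than any such run. Other transcripts and HOX genes outside the cluster were not compared.

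The promoter of HOXA9 is shown because it is the 1 member window that held the PBX-HOX9 motif searched, TGATTTA. These are the 250 bases before the annotated start in RefSeq (build GRCh38.p14, chr7:27165538-27165787, minus strand), with the motif in capitals, its first base at −102 from the start.
HOXA9 promoter: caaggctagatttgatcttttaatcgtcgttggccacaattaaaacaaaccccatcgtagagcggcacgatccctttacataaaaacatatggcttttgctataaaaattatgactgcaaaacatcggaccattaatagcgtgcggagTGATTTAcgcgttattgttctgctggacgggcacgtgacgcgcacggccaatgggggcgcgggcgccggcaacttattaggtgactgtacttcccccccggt
Each RefSeq window runs from 250 bases before to 50 after a start and was read on both strands. The table held 15 such windows for 8 of the 9 members, HOXA5 being the exception. TGATTTA stood in 1 of the 15 windows and in 1014 of all 35116 promoters (2.888%). The MEIS motif TGACAG overlapped it in none of these windows and stood in a window of HOXA4 (−107) and in that of HOXA13 (15 after the start), and in 15.76% of all promoters. A match is only a description of the letters.

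All 9 genes lie on the minus strand of chromosome 7 within 93923 bases, from 27106184 to 27200106 (GRCh38, GENCODE 29), so exons of neighbours and of antisense RNAs overlap. HOXA5 (27141052 to 27143668) shared no exon base with another gene, and HOXA13 (27193503 to 27200106) shared 1.69% of its 5086. HOXA7 (27153716 to 27157936) shared the largest part, 62.5% of 2411 bases, all with the antisense gene HOXA-AS3. HOXA4 (27128507 to 27130799) shared 47.3%, HOXA6 (27145396 to 27150603) 40.1% and HOXA11 (27181510 to 27185223) 31.1%, in the last case all with HOXA11-AS. HOXA9 (27162435 to 27175180) shared 27.0% of 3029 bases and HOXA10 (27170591 to 27180261) 26.3% of 3707. Most of that was shared with HOXA10-AS and with a readthrough gene that joins both, ENSG00000257184, which overlapped 397 and 368 of their bases. HOXA3 (27106184 to 27152581), whose span runs across HOXA4, HOXA5 and HOXA6, shared 17.9% of 4306 exon bases.

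**Figure D1:**
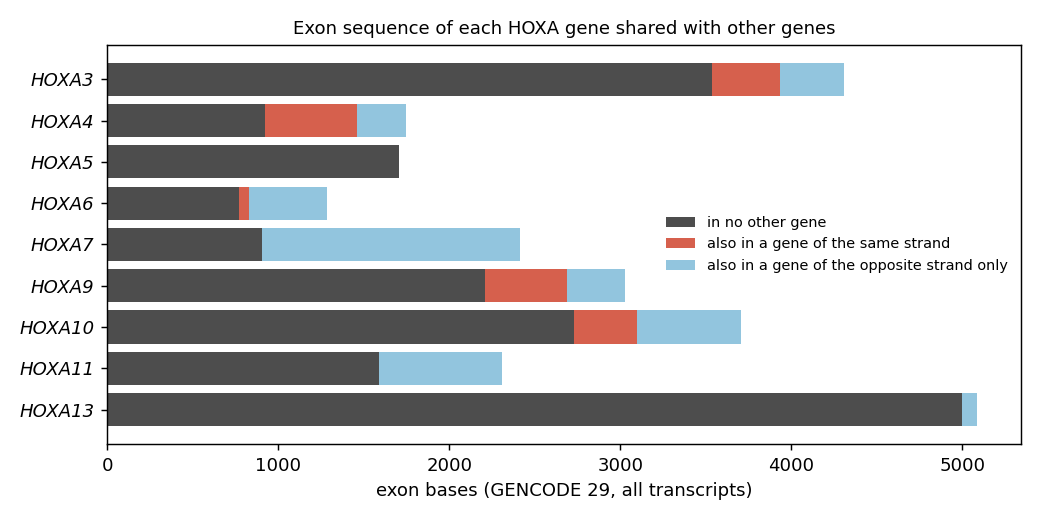
Exon bases of the 9 HOXA genes in GENCODE 29, split into bases in no other gene, bases also in a gene of the same strand, and bases in a gene of the opposite strand only. HOXA13 and HOXA3 have the most bases of their own (5000 and 3534), and HOXA4, HOXA7 and HOXA6 the fewest (921, 904 and 770).

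How the counting treated shared bases could be read from the files. Of 708 genes wholly covered by exons of the opposite strand and none of the same, 12 (1.69%) had a count in any library, against 60.4% of 41306 genes that share no base. The readthrough gene and MIR196B, a microRNA gene inside HOXA9, had no count in any of the 17 libraries. Of 1057 genes wholly covered on their own strand, 165 (15.6%) had one. Genes without a base of their own thus seldom had a count, whichever strand covered them. Reads in such shared bases mostly entered the count of neither gene, as in counting that ignores strand. No source used here gives the strand setting of the counting. In the bases that a gene shares with its antisense partner, reads of the pair therefore cannot be told apart.

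Reads assigned to genes, in units of 1000000, numbered 36.2 to 42.5 in HOXA9_KO, 30.7 to 44.4 in SAFB_KO, 39.9 to 67.8 in NT, 23.3 to 29.9 in MEIS1_KO and 26.8 to 33.2 in NT_MEIS1ex. Mitochondrial rRNA took 31.9% to 35.5% of them in HOXA9_KO, 24.9% to 27.0% in SAFB_KO, 22.5% to 28.4% in NT and at most 0.0094% in the MEIS1 experiment. The share of reads outside genes was 8.65% to 9.27% in HOXA9_KO, 10.6% to 12.7% in SAFB_KO and 16.4% to 18.1% in NT, and reads in more than 1 gene made up 7.35% to 7.96%, 6.74% to 7.13% and 6.09% to 6.42%. Levels are given as CPM, the count of a gene per 1000000 counts of its library, with library sizes scaled by TMM within an experiment. The targeted gene fell in each knockout, MEIS1 to 11.2 ± 1.10 CPM in MEIS1_KO, against 32.4 ± 0.824 CPM in NT_MEIS1ex (SD, n = 4 each). SAFB had 22.2, 20.4 and 19.4 CPM in SAFB_KO, against 40.4, 33.6 and 40.9 CPM in NT. Of 10 myeloid and MOLM13 identity markers 9 or 10 averaged over 1 CPM in every group. Their summed level was 29583 to 32517 CPM in HOXA9_KO, 13505 to 15219 in SAFB_KO, 5537 to 5649 in NT, 8247 to 8554 in MEIS1_KO and 4654 to 6219 in NT_MEIS1ex, and the monocyte lysozyme gene LYZ made up most of it in each. The defining markers of T cells (CD3E) and epithelium (EPCAM) reached at most 0.0372 CPM in any library. Of 8 fibroblast and endothelial markers 1 exceeded 1 CPM, PECAM1, which monocytes also express, at 477.3 to 504.1 CPM in HOXA9_KO, 301.4 to 322.3 in SAFB_KO, 158.8 to 163.5 in NT, 342.2 to 350.3 in MEIS1_KO and 232.3 to 264.9 in NT_MEIS1ex. Single myeloid markers did not all follow the sum. FLT3 was lower in HOXA9_KO (314.8 to 326.1 CPM) and SAFB_KO (541.2 to 556.6) than in NT (668.5 to 684.8). CD33 was higher in both (108.9 to 111.5 and 83.6 to 89.6, against 58.4 to 61.7 in NT). SPI1 and CEBPA overlapped between MEIS1_KO and NT_MEIS1ex, as MPO did between SAFB_KO and NT. The myeloid sum, mostly LYZ, and PECAM1 were higher in each knockout than in its controls. The share outside genes was lower in HOXA9_KO and SAFB_KO than in NT, and mitochondrial rRNA was higher in HOXA9_KO than in NT. The part of these in the results below was not tested.

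The HOXA cluster held nearly all HOX RNA of these cells. None of 28 HOXB, HOXC and HOXD genes reached 1 CPM in any library, and 16 had no count at all. The 9 members together made up 42.3 ± 0.291 CPM in HOXA9_KO, 77.2 ± 0.650 in SAFB_KO and 87.3 ± 1.986 in NT (SD, n = 3 each), and 106.7 ± 12.8 in MEIS1_KO and 115.1 ± 7.63 in NT_MEIS1ex (SD, n = 4 each). HOXA9 alone held 50.7% of that sum in HOXA9_KO, 49.0% in SAFB_KO, 46.8% in NT, 39.8% in MEIS1_KO and 39.9% in NT_MEIS1ex. The experiments were scaled separately, so sums and levels are compared within each.

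Levels of different genes were compared as CPM per kilobase of the exon bases that belong to 1 gene alone. HOXA9 was highest in all 5 groups, with 9.68 ± 0.201 in HOXA9_KO, 17.1 ± 0.350 in SAFB_KO and 18.5 ± 0.438 in NT, and 19.3 ± 3.80 in MEIS1_KO and 20.8 ± 2.21 in NT_MEIS1ex. HOXA10 and HOXA11 followed, at 5.01 ± 0.542 and 4.93 ± 0.627 CPM per kilobase in NT, and their ranges overlapped there (4.497 to 5.58 and 4.22 to 5.40). In NT_MEIS1ex they did not overlap, with HOXA10 at 7.86 to 9.61 and HOXA11 at 6.13 to 7.54. HOXA13 in NT, at 2.72 to 3.08, overlapped HOXA6 (2.46 to 3.39), which overlapped HOXA5 (2.17 to 2.61) and HOXA7 (1.83 to 2.76). HOXA3 (0.443 to 0.558) lay above HOXA4 (0.189 to 0.426), the lowest member in all 5 groups. The place of HOXA7 depends on the bases it is divided by, since it ranked 4 in NT_MEIS1ex over its own bases and 7 over all its exon bases. HOXA9 thus headed the order in every group, and HOXA3 and HOXA4 closed it.

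HOXA9 knockout lowered the RNA of the whole run from HOXA3 to HOXA13. All 9 members were tested and all 9 fell, where 29.9% of the 18876 tested genes were lower and 57.5% differed in either direction (edgeR's quasi-likelihood test, Benjamini-Hochberg adjusted p under 0.05). In each of the 9 every HOXA9_KO library lay below every NT library, a separation found in 33.5% of all tested genes. The members' median log2 fold change was −1.32, −1.44 without the targeted gene, and that of all tested genes −0.07. HOXA9 is the gene that was cut. Its own change (−0.93) lay within the range of the other members (−0.89 to −2.04), so by itself it does not check the label. Scaling libraries to nuclear protein-coding counts also called all 9 lower. It moved the median of all tested genes to −0.32 and the calls over all genes to 2861 higher and 9293 lower, where the TMM scaling gave 5207 higher and 5640 lower. In bulk RNA, fewer cells with the cluster on and less HOXA RNA per cell cannot be told apart.

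**Figure D2:**
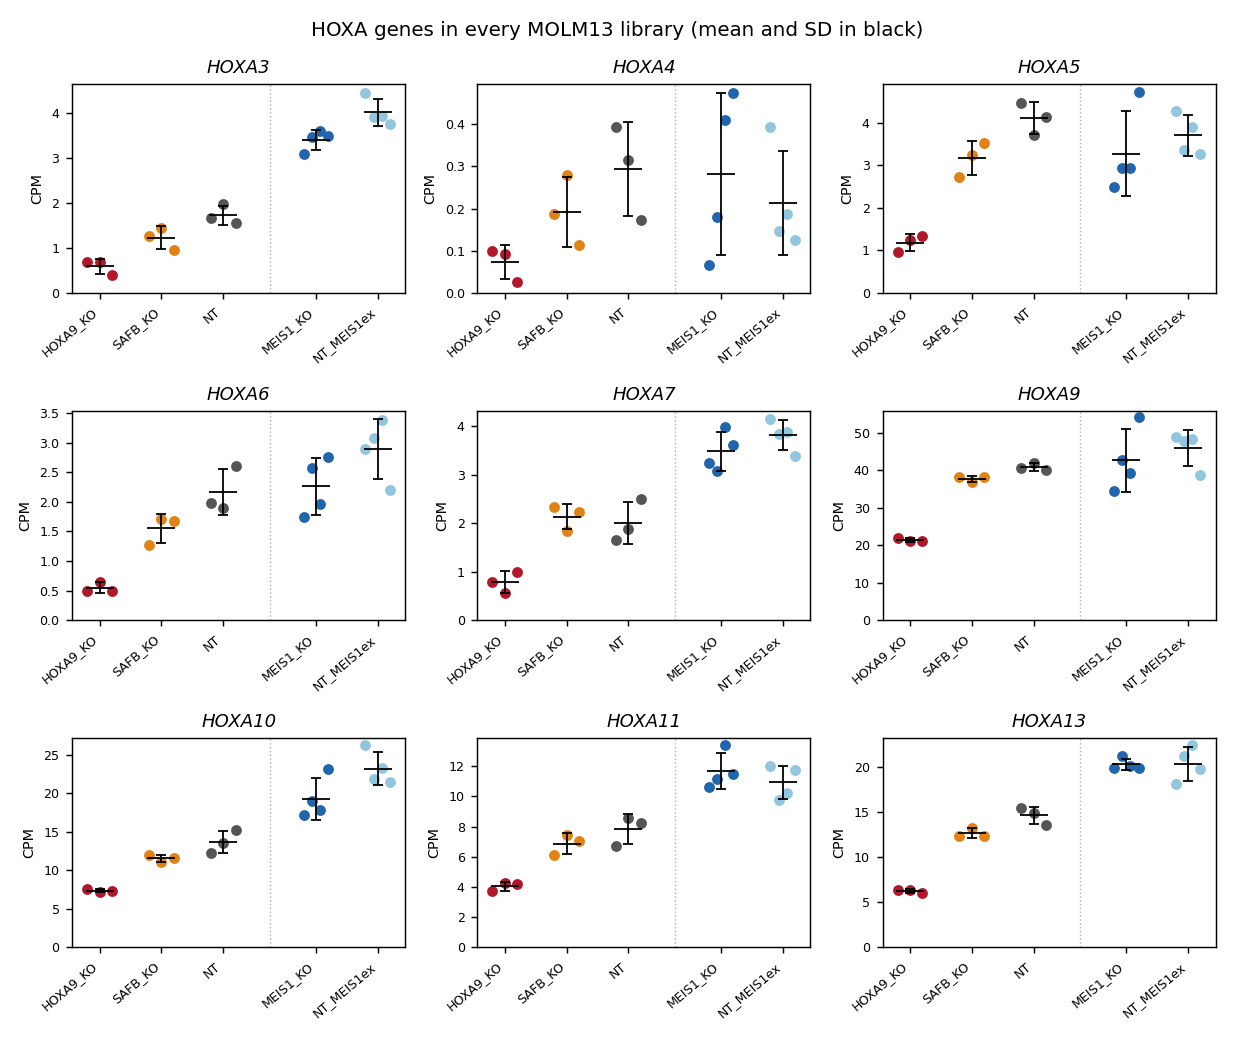
CPM of each HOXA gene in every library (points), with group mean and SD in black, the HOXA9 and SAFB experiment left of the dotted line and the MEIS1 experiment right of it. In all 9 panels the HOXA9_KO points lie below the NT points, while MEIS1_KO and NT_MEIS1ex overlap in all but HOXA3.

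The posterior members had the highest counts. HOXA9, the leukaemia dependency gene of the cluster, had 21.9, 21.2 and 21.1 CPM in HOXA9_KO, against 40.5, 42.0 and 40.1 CPM in NT. Its RNA thus remained at 52.3% of NT, a log2 fold change of −0.93 ± 0.05 (SE; adjusted p 1.4e-20). HOXA10, a factor of myeloid progenitors and, in development, of the uterus, had 7.52, 7.22 and 7.35 CPM in HOXA9_KO, against 12.3, 13.5 and 15.2 CPM in NT. It fell by 0.89 ± 0.09 on the log2 scale (adjusted p 3.9e-12), close to the change of HOXA9. HOXA11, a gene of limb and kidney development, had 3.71, 4.23 and 4.22 CPM in HOXA9_KO and 6.71, 8.59 and 8.23 CPM in NT. The change was −0.94 ± 0.12 (adjusted p 1.9e-09). HOXA13, needed in mice for digits and the genital tract, had 6.33, 6.38 and 6.03 CPM in HOXA9_KO and 15.4, 14.9 and 13.6 CPM in NT. With 42.6% of the NT level left, it changed by −1.23 ± 0.09 (adjusted p 2.7e-17), the largest fall of the 4 posterior genes, and nearly all of its exon bases are its own.

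The central and anterior members lay lower and had larger fitted changes. HOXA7, like HOXA9 a direct target of MLL fusions, had 0.796, 0.560 and 1.0001 CPM in HOXA9_KO and 1.65, 1.87 and 2.498 CPM in NT (log2 fold change −1.32 ± 0.24, adjusted p 4.6e-06). HOXA6 had 0.497, 0.653 and 0.487 CPM in HOXA9_KO and 1.988, 1.89 and 2.61 CPM in NT. That is 25.4% of NT and a change of −1.98 ± 0.25 (adjusted p 2.0e-09). HOXA5, a patterning gene of the lung in mice and the member with no shared exon base, had 0.961, 1.24 and 1.35 CPM in HOXA9_KO and 4.46, 3.71 and 4.15 CPM in NT. It remained at 29.04% of NT, with no overlap between the groups (−1.78 ± 0.17, adjusted p 1.1e-12).

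HOXA3, which in mice is needed for thymus and parathyroid, had 0.696, 0.684 and 0.405 CPM in HOXA9_KO and 1.66, 1.97 and 1.56 CPM in NT. It changed by −1.56 ± 0.27 (adjusted p 1.6e-06). HOXA4 rested on few reads, 3, 3 and 1 in HOXA9_KO and 29, 16 and 8 in NT, or 0.0994, 0.0933 and 0.0270 CPM against 0.392, 0.316 and 0.174 CPM. The fitted change was −2.04 ± 0.68 (adjusted p 0.0091), and the call was lost without NT replicate 1 (adjusted p 0.0704) and without HOXA9_KO replicate 3 (adjusted p 0.0743), within a range of 0.0031 to 0.0743 over the alternatives. The members from HOXA3 to HOXA7 thus changed by −1.32 to −2.04 and those from HOXA9 to HOXA13 by −0.89 to −1.23. At the edge of this split HOXA7 (−1.32 ± 0.24) and HOXA13 (−1.23 ± 0.09) lay within error, and the runs were not tested against each other. Level moved with this split, since the highest gene of the first run, HOXA5, averaged 4.11 CPM in NT and the lowest of the second, HOXA11, 7.84 CPM. Over all tested genes the median change was −0.46 below a mean of 1 CPM, −0.10 from 1 to 20 CPM and 0.10 from 20 CPM upwards, and the part of level in the split was not tested.

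Genes beside the run went different ways in HOXA9_KO. HOXA2, a hindbrain gene, had 30, 19 and 23 reads in HOXA9_KO and 55, 31 and 15 in NT (log2 fold change 0.35 ± 0.35, adjusted p 0.406). EVX1, the homeobox gene beyond HOXA13, had 1 read in a single NT library and none in the other 16. Of the genes outside the cluster, SKAP2, an adaptor gene on the HOXA2 side, rose to 94.6 ± 2.64 CPM in HOXA9_KO, against 67.2 ± 1.49 CPM in NT (SD, n = 3 each; 0.49 ± 0.04, adjusted p 6.6e-16). On the HOXA13 side HIBADH, a gene of valine breakdown, fell to 9.35 ± 0.479 CPM, against 14.8 ± 0.652 CPM in NT (−0.65 ± 0.08, adjusted p 1.6e-09).

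Of 6 noncoding RNA genes of the cluster, 4 fell and 1 rose in HOXA9_KO, where 29.9% of all tested genes fell and 57.5% were called in either direction. HOXA-AS3, antisense to HOXA6 and HOXA7, fell to 0.827 ± 0.161 CPM, against 3.27 ± 0.127 CPM in NT (SD, n = 3 each; log2 fold change −1.99 ± 0.20, adjusted p 3.0e-12). HOXA-AS2, antisense to HOXA3 and HOXA4, fell by 1.88 ± 0.27 on the log2 scale (adjusted p 5.1e-08). HOTAIRM1, a noncoding RNA beyond HOXA2 that is induced in myeloid maturation, rose to 4.56 ± 0.424 CPM, against 2.48 ± 0.440 CPM in NT (0.88 ± 0.16, adjusted p 4.3e-06). HOXA10-AS (−1.16 ± 0.22, adjusted p 8.1e-06) and HOXA11-AS (−0.77 ± 0.15, adjusted p 1.4e-05) also fell, and HOTTIP, beyond HOXA13, differed by −0.32 ± 0.32 (adjusted p 0.399). The noncoding RNAs that fell lie between HOXA3 and HOXA11, and the 1 that rose lies beyond HOXA2. With the strand setting of the counting unknown, counts of antisense genes may include reads from the members' strand in every comparison. That part was not tested.

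In SAFB_KO the fitted changes of these 9 genes lay between −0.60 and 0.10 on the log2 scale. By edgeR 3 of 9 were lower, where 15.3% of all tested genes were, and none was higher, where 20.2% were. HOXA5 had 2.74, 3.24 and 3.54 CPM in SAFB_KO and 4.46, 3.71 and 4.15 CPM in NT (−0.37 ± 0.15, adjusted p 0.0408). HOXA10 had 12.0, 11.1 and 11.6 CPM in SAFB_KO and 12.3, 13.5 and 15.2 CPM in NT (−0.24 ± 0.08, adjusted p 0.0227), and HOXA13 12.4, 13.3 and 12.3 CPM against 15.4, 14.9 and 13.6 CPM (−0.21 ± 0.08, adjusted p 0.0325). Each of these groups was separated, but narrowly. DESeq2 called 0 of 9, an edgeR fit with no filter 1, and fits without 1 library between 1 and 3, so the number depends on these settings. Without NT replicate 1 or 3, or without any of the SAFB_KO libraries, 1 member was called.

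HOXA9 had 38.2, 36.9 and 38.3 CPM in SAFB_KO, below all of the NT values of 40.5, 42.0 and 40.1 CPM, and did not pass (−0.11 ± 0.05, adjusted p 0.0762). It was called lower with a filter of at least 2 CPM (−0.17, adjusted p 0.00541) and when scaled to nuclear protein-coding counts (−0.25, adjusted p 7.0e-05). HOXA3 and HOXA6 were also separated but not called, with −0.48 ± 0.23 (adjusted p 0.101) and −0.46 ± 0.21 (adjusted p 0.0801), so that 6 of 9 members were separated downwards, where 22.3% of all tested genes were. HOXA11 (−0.17 ± 0.11, adjusted p 0.222) and HOXA4 (−0.60 ± 0.55, adjusted p 0.429) overlapped with NT. HOXA7 had 2.33, 1.84 and 2.24 CPM in SAFB_KO and 1.65, 1.87 and 2.498 CPM in NT (0.10 ± 0.20, adjusted p 0.756), a sign that turned without NT replicate 1 and when scaled to nuclear protein-coding counts. That scaling moved the median of all tested genes from −0.02 to −0.16 and called 7 of 9 members lower, with 1712 higher and 5535 lower over all genes, where the TMM scaling gave 3812 higher and 2886 lower. Among the noncoding genes HOXA-AS2 (−0.98 ± 0.24, adjusted p 9.3e-04) and HOXA-AS3 (−0.58 ± 0.17, adjusted p 0.0056) fell. HOXA2 differed by 0.05 ± 0.35 (adjusted p 0.934). SKAP2 rose in SAFB_KO too (0.50 ± 0.04, adjusted p 1.9e-15), to 94.9 ± 0.477 CPM, and HIBADH fell (−0.56 ± 0.08, adjusted p 1.0e-07).

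The knockouts of HOXA9 and SAFB share the NT libraries, so their difference was tested directly. HOXA9_KO lay below SAFB_KO in every library for all 9 members, a separation found in 24.6% of tested genes, and 8 of 9 were called lower, against 20.5% of tested genes. HOXA4 was the exception (−1.44 ± 0.74, adjusted p 0.121). The differences ran from −0.65 ± 0.09 for HOXA10 (adjusted p 1.0e-07) to −1.52 ± 0.27 for HOXA6 (adjusted p 5.1e-06). HOXA9, the gene cut in HOXA9_KO, differed by −0.82 ± 0.06 (adjusted p 1.4e-17). HOXA7 differed by −1.42 ± 0.24 (adjusted p 3.6e-06) and HOXA13 by −1.02 ± 0.09 (adjusted p 1.6e-13). Scaled to nuclear protein-coding counts, the calls over all genes were 2449 higher and 5845 lower, where the TMM scaling gave 3791 higher and 3877 lower, and 8 members were called lower under both.

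In MEIS1_KO no member was called. edgeR tested 8 of 9 (HOXA4 was under the filter) and called 0, where 8.81% of 15744 tested genes differed, 3.84% downwards. At an unadjusted p under 0.05 there was 1, HOXA10, while DESeq2 and limma-voom called 0 and the fit with no filter 1. HOXA9 had 34.6, 42.7, 39.2 and 54.3 CPM in MEIS1_KO and 48.9, 47.9, 48.5 and 38.7 CPM in NT_MEIS1ex. The groups overlapped, and the log2 fold change of −0.11 ± 0.13 (adjusted p 0.686) had a wide error. HOXA10 had 17.1, 19.0, 17.9 and 23.2 CPM in MEIS1_KO and 26.2, 21.9, 23.3 and 21.5 CPM in NT_MEIS1ex (−0.27 ± 0.09, adjusted p 0.0747). It was called with no filter (−0.28, adjusted p 0.0075) and without MEIS1_KO replicate 4 (−0.37, adjusted p 0.0096), within a range of 0.0075 to 0.218 over the alternatives. HOXA3 was the 1 member whose groups did not overlap, against 7.28% of tested genes, with 3.09, 3.47, 3.61 and 3.49 CPM in MEIS1_KO and 4.46, 3.92, 3.95 and 3.76 CPM in NT_MEIS1ex (−0.24 ± 0.12, adjusted p 0.218).

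The remaining members overlapped between MEIS1_KO and NT_MEIS1ex. HOXA13 had 19.9, 21.2, 20.1 and 19.9 CPM in MEIS1_KO and 18.1, 21.2, 22.4 and 19.8 CPM in NT_MEIS1ex (−0.00 ± 0.07, adjusted p 0.980), and its sign turned in 7 alternatives. HOXA11 had 10.6, 11.2, 13.4 and 11.46 CPM in MEIS1_KO and 12.0, 9.75, 10.2 and 11.7 CPM in NT_MEIS1ex (0.09 ± 0.09, adjusted p 0.604). HOXA5, HOXA6 and HOXA7 differed by −0.19 ± 0.17, −0.36 ± 0.17 and −0.13 ± 0.12 (adjusted p 0.538, 0.215 and 0.562). HOXA4 had 2, 5, 11 and 11 reads in MEIS1_KO and 11, 4, 5 and 4 in NT_MEIS1ex. No noncoding gene of the cluster was called of 6 tested. Scaled to nuclear protein-coding counts, 979 genes were higher and 450 lower, where TMM gave 783 and 604. MEIS1 itself fell by 1.54 on the log2 scale in both MEIS1_KO and HOXA9_KO, measured in different experiments.

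**Figure D3:**
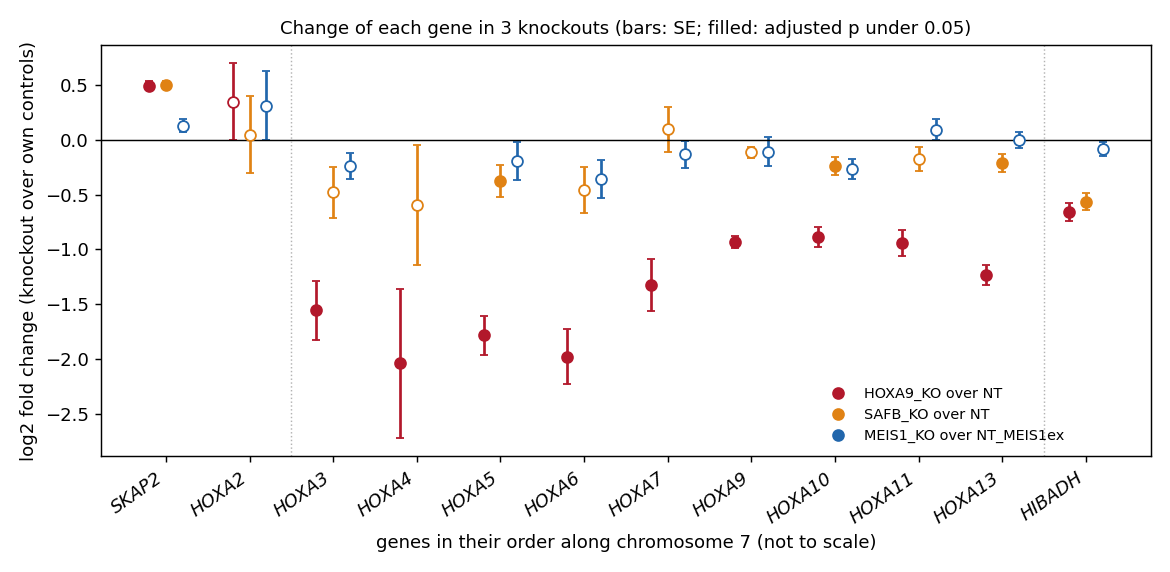
Log2 fold change with SE of the 9 HOXA genes, HOXA2, SKAP2 and HIBADH in each knockout over its own controls, in chromosomal order; filled points passed an adjusted p under 0.05, and HOXA4 in MEIS1_KO and EVX1 were not tested. The HOXA9_KO points lie between −0.89 and −2.04 from HOXA3 to HOXA13 and above 0 for HOXA2 and SKAP2.

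Whether the knockouts differed in their effect on the cluster was tested as a difference between differences over all 17 libraries. MEIS1 was knocked out in a separate experiment with a different library make-up. A difference between knockouts and a difference between experiments therefore cannot be told apart here. The effect of HOXA9 knockout was more negative than that of MEIS1 knockout for 9 of 9 members, against 19.7% of 18836 tested genes. These 9 include HOXA9, the gene cut in HOXA9_KO. The difference was −0.78 ± 0.16 for HOXA9 (adjusted p 7.7e-04), −0.57 ± 0.13 for HOXA10 (adjusted p 5.8e-04), −0.99 ± 0.16 for HOXA11 (adjusted p 2.3e-06), −1.19 ± 0.11 for HOXA13 (adjusted p 4.3e-11) and −1.14 to −2.36 for HOXA3 to HOXA7. HOXA4 (−2.36 ± 0.86, adjusted p 0.0251) lost its call in 6 alternatives, its adjusted p ranging from 0.0079 to 0.0927. These were limma-voom and the fits that left out NT_MEIS1ex replicate 4, MEIS1_KO replicate 3 or 4, HOXA9_KO replicate 3 or NT replicate 1. The effect of SAFB knockout minus that of MEIS1 knockout passed for 0 of 9 by edgeR, against 8.49% of tested genes lower and 20.9% in either direction, with 0 at an unadjusted p under 0.05 and 0 by DESeq2 and limma-voom. Those differences lay between −0.95 ± 0.75 for HOXA4 and 0.24 ± 0.23 for HOXA7, and the SE of 0.10 to 0.26 for the other 7 members limits what could be seen. Scaled to nuclear protein-coding counts, HOXA11 (−0.43, adjusted p 0.0310) and HOXA13 (−0.37, adjusted p 0.0116) were called, and the calls over all genes were 612 higher and 3496 lower, where the TMM scaling gave 2330 and 1600. For HOXA9 minus MEIS1 they were 1867 and 7777, where TMM gave 4618 and 3703, with 9 of 9 members lower under both.

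The partners of the HOXA proteins moved as well. Of 11 TALE homeodomain genes 7 were tested in the first experiment, and 2 rose and 4 fell in HOXA9_KO. MEIS1 fell to 16.8 ± 0.816 CPM, against 49.1 ± 1.06 CPM in NT (SD, n = 3 each; −1.54 ± 0.06, adjusted p 9.4e-29), and PBX3 to 53.6 ± 2.01 CPM, against 110.3 ± 3.88 CPM in NT (−1.04 ± 0.04, adjusted p 8.4e-28). PBX2 rose to 52.4 ± 3.02 CPM, against 38.5 ± 1.40 CPM in NT (0.45 ± 0.05, adjusted p 4.8e-11). In SAFB_KO 2 rose and 2 fell, among them PBX3 (−0.27 ± 0.04, adjusted p 1.6e-07) and MEIS1 (−0.31 ± 0.05, adjusted p 3.2e-06). In MEIS1_KO 1 of 8 tested genes fell, MEIS1 itself, and PBX3 differed by −0.09 ± 0.05 (adjusted p 0.266). Over all tested genes 57.5% were called in HOXA9_KO, 35.5% in SAFB_KO and 8.81% in MEIS1_KO. Scaled to nuclear protein-coding counts, 1 TALE gene rose and 5 fell in HOXA9_KO, and 0 rose and 4 fell in SAFB_KO.

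Chromatin regulators of the cluster were called in both directions, activators in HOXA9_KO about as often as tested genes at large. Among 33 genes of activators (MLL complexes, elongation factors and DOT1L) 30 were tested, and 8 rose and 9 fell in HOXA9_KO, with a median of −0.06, where 57.5% of all tested genes were called in either direction. PSIP1, which encodes LEDGF, the protein that holds MLL on chromatin, fell to 32.0 ± 1.51 CPM, against 68.4 ± 0.654 CPM in NT (−1.10 ± 0.05, adjusted p 1.7e-25). RBBP5, a core subunit of MLL complexes, rose to 89.1 ± 4.98 CPM, against 51.1 ± 1.13 CPM in NT (0.80 ± 0.04, adjusted p 1.3e-21). Of 28 genes of polycomb and other repressors 6 rose and 13 fell (median −0.16). EZH2, the methyltransferase of polycomb complex PRC2, fell by 0.92 ± 0.05 and BMI1, of polycomb complex PRC1, by 0.69 ± 0.04 on the log2 scale (adjusted p 8.5e-21 and 2.9e-22), while the PRC2 cofactor gene JARID2 rose by 0.86 ± 0.04 (adjusted p 2.7e-25). In SAFB_KO 10 activator genes rose and 7 fell, and 3 repressor genes rose and 6 fell, where 35.5% of all tested genes were called. PSIP1 fell there by 0.43 ± 0.05 (adjusted p 9.0e-11) and JARID2 rose by 0.41 ± 0.04 (adjusted p 1.3e-12). In MEIS1_KO 2 activator genes fell of 30, DOT1L (−0.25 ± 0.06, adjusted p 0.0191) and NPM1 (−0.17 ± 0.04, adjusted p 0.0245), and of 28 repressor genes 1 rose, JARID2 (0.20 ± 0.05, adjusted p 0.0139), and 2 fell, CBX2 (−0.32 ± 0.08, adjusted p 0.0206) and DNMT3B (−0.27 ± 0.08, adjusted p 0.0385), where 8.81% of all tested genes were called. CBX2 lost its call in 3 of 15 alternative fits (adjusted p up to 0.0744) and DNMT3B in 9 of 15 (up to 0.110). DOT1L lost its call without MEIS1_KO replicate 1 (adjusted p 0.0544) or 3 (0.0698), JARID2 without NT_MEIS1ex replicate 3 (0.0506) or MEIS1_KO replicate 3 (0.0668), and NPM1 in 5 of 8 such fits (up to 0.100). With libraries scaled to nuclear protein-coding counts the HOXA9_KO split was 5 higher and 23 lower for activators and 3 higher and 22 lower for repressors, and that of SAFB_KO 1 and 14 for activators and 3 and 16 for repressors.

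The genes whose pattern was most like that of HOXA9 over all 17 libraries were found by the root mean square difference of log2 levels relative to the mean of the own controls, among 10786 protein-coding genes of at least 2 CPM. They were the spindle protein gene FAM83D (0.094), PRELID3A (0.098), the cyclin-dependent kinase inhibitor gene CDKN2C (0.109), LONRF1 (0.125) and the homeobox gene IRX3 (0.126). For HOXA10 they were KCTD15 (0.099), INAVA (0.106), CDKN2C again (0.111), NAT8L (0.112) and HIP1R (0.116). HOXA9 and HOXA10 differed from each other by 0.126 and were each other's nearest member. HOXA5 lay farthest from HOXA10 (0.307) and, together with HOXA6 and HOXA4, far from HOXA9 (0.284, 0.273 and 0.266). The measure is a description, taken with a pseudocount of 0.5 CPM, which shrinks the changes of low genes such as HOXA4.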

How the data were processed

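RNA of 17 MOLM13 libraries was sequenced as pairs of 150 bases after rRNA depletion with a directional kit, per the labels' protocols. The authors deposited raw read counts per gene. Trimming with Trim Galore, alignment with STAR 2.7.10a and counting with HTSeq 1.99.2 on hg38 are named in the submitters' processing notes. No source used here gives the strand setting or the annotation release. Lines that name no gene were left out of library sizes and tests, and their shares are given as reads outside genes or in several genes.

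Identifiers were matched to GENCODE 29. CPM and log2 fold changes were computed here from the deposited counts. edgeR 4.0.16 (R 4.3.3) used filterByExpr (minimum count 10, total 15), TMM scaling and the robust quasi-likelihood F test with Benjamini-Hochberg adjustment over all tested genes, threshold 0.05. The first experiment was fitted with 9 libraries, the second with 8, and differences between knockout effects with all 17. The SE is the log2 fold change divided by the root of F. The procedure was tested on simulated data.

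Alternatives were DESeq2 1.42.0, limma-voom (limma 3.58.1), other scalings and filters, a replicate block and leaving out each library. Named genes were all members, the 3 list genes of lowest p per comparison and the 5 nearest in pattern. Some items are not reported here. The members and lists were chosen with earlier results of these data known.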

Additional observations from a re-analysis of the deposited data

Results flagged for a closer look

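HOXA9 in the second experiment's controls had 1 library far from the others. NT_MEIS1ex replicate 4 had 38.7 CPM, against 48.9, 47.9 and 48.5 CPM in the other 3, and the gap to its nearest neighbour was 0.906 of the group's range, above the 95% critical value of Dixon's test for 4 samples. Of 18 groups of 4 tested, 1 was flagged, and chance flags about 1 in 20. The same library was the lowest of its group for 7 of 9 members, as MEIS1_KO replicate 1 was of its own. Without it, no member was called in MEIS1_KO.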

How the results depend on the processing

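All listed alternatives were run. Earlier results of these data were known when the members and lists were chosen. A fit of only HOXA9_KO and NT left HOXA4 untested and called the other 8 members lower. In HOXA9_KO against NT and against SAFB_KO, a filter of at least 2 CPM left 5 members, and all 5 were called lower. Fits without 1 library gave 8 to 9 members lower against NT and 8 against SAFB_KO. In SAFB_KO against NT the members lower were 0 by DESeq2, 1 with no filter, 7 scaled to nuclear protein-coding counts, 4 of the 5 left by a filter of at least 2 CPM, and 1 to 3 without 1 library. In MEIS1_KO they were 1 with no filter and 0 to 1 without 1 library, where the genes called over all ranged from 751 to 1772 beside 1387. That number was 873 without MEIS1_KO replicate 2, 751 without MEIS1_KO replicate 3 and 884 without NT_MEIS1ex replicate 4. For the SAFB effect minus the MEIS1 effect 2 members were lower under the protein-coding scaling. Of the other values for single genes, 1616 kept direction and side of the threshold, 12 passed it newly, 46 no longer passed and 32 changed sign, and the cause was not tested.

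The sign changes of results with a small difference were as follows. Scaled to nuclear protein-coding counts, HOXA7 (−0.0431) and HOXA2 (−0.0904) in SAFB_KO, HOXA13 in MEIS1_KO (0.0221) and, for SAFB minus MEIS1, HOXA9 (−0.17) and HOXA10 (−0.13) turned. NPM1 in SAFB_KO, called at 0.14, turned to −0.0037 there (adjusted p 0.923). With at least 2 CPM, HOXA13 in MEIS1_KO was 0.0066 and, for SAFB minus MEIS1, HOXA9 −0.0685 and HOXA10 −0.0318, while limma-voom gave 0.00070 for HOXA13 in MEIS1_KO.
Without 1 library, the ranges of results that changed sign were HOXA7 in SAFB_KO vs NT −0.0365 to 0.28, HOXA13 in MEIS1_KO vs NT_MEIS1ex −0.0561 to 0.0429, HOXA9 in SAFB effect minus MEIS1 effect −0.0866 to 0.14, HOXA5 in SAFB effect minus MEIS1 effect −0.28 to 0.0481, HOXA6 in SAFB effect minus MEIS1 effect −0.20 to 0.0536, HOXA10 in SAFB effect minus MEIS1 effect −0.0276 to 0.14 and HOXA2 in SAFB_KO vs NT −0.20 to 0.33.

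Same-numbered libraries did not visibly deviate together, with correlations of −0.27 to 0.09 beside −0.19 to 0.23 for differently numbered ones. With 3 or 4 libraries per group this cannot exclude a pairing, and the main fits used none. With a replicate block the calls over all genes were 10787 beside 10847 in HOXA9_KO, 6718 beside 6698 in SAFB_KO and 1195 beside 1387 in MEIS1_KO, member counts did not change, and 96 of 97 gene values kept their side. DNMT3B in MEIS1_KO was the exception (adjusted p 0.0566). Depth limits HOXA4 most, at 1 to 29 reads per library.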
